A study of Mus musculus with 12 samples.

Results

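The interferon-stimulated genes of mouse liver were followed in animals that had all received adenovirus. The 42 genes were chosen by symbol from a list of known interferon targets, out of 55536 genes in the deposited tables. They fall into a type I class of 33 genes, whose products sense, signal or block virus infection, and 9 interferon-gamma GTPases of the IRG and GBP families. Many of these genes respond to both kinds of interferon, so the class names say which response a gene is best known for.

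Livers of 8-week-old wild-type C57BL/6J mice (strain label C57BL/6) were sampled 12 days after adenovirus had been given into the tail vein at 0.1 OD. The 3 groups of 4 samples are named by the hairpin RNA in the virus: shG0s2 against G0s2, an inhibitor of the lipase ATGL, shRgs16 against Rgs16, a regulator of G protein signalling, and shLacZ against a bacterial gene as control. Tissue was taken at zeitgeber time 12, after 6 h without food during the day. All groups carry adenovirus and no uninfected group was analysed here. The comparisons therefore show how the hairpin groups differ, and cannot show which levels are a response to the vector. The labels do not say which liver cells took up the virus. Nor do they say that each replicate is its own animal, so a p-value reflects only how far the 4 samples of a group scatter, which may be technical.

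Interferons are secreted when a cell senses viral nucleic acid. Type I interferon binds IFNAR and, through the kinases TYK2 and JAK1, activates the factor ISGF3, which contains STAT2 and IRF9 and binds the interferon-stimulated response element (ISRE). Interferon-gamma, made mainly by T and NK cells, binds IFNGR and acts at gamma-activated sites (GAS) and through the factor IRF1. Hepatocytes and Kupffer cells both respond to interferons.

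Total counts per sample ran between 18458222 and 27170419. Levels of a gene across samples are given as counts scaled to a common library size (CPM), with the trimmed mean of M-values (TMM). The TMM scale sets most genes equal between groups: the median log2 fold change of all tested genes was 0.01 in each comparison, against 0.50 for shG0s2 over shLacZ, 0.31 for shRgs16 over shLacZ and 0.21 for shG0s2 over shRgs16 when only library size was used. Directions below are therefore relative to the bulk of genes, and those that turn round on library size are named. G0s2 averaged 37.2 ± 10.1 CPM in shG0s2, 75.0 ± 14.1 in shRgs16 and 73.7 ± 9.8 in shLacZ (SD, n = 4 each). Its log2 fold change in shG0s2 against shLacZ was -0.98 (SE 0.198, adjusted p 0.00301 by edgeR's quasi-likelihood test). On library size alone this value was -0.48, with an adjusted p of 0.0553 by the same test. Rgs16 averaged 59.1 ± 11.4, 26.2 ± 10.9 and 149 ± 46.3 CPM in the same order of groups, so it was below shLacZ in the shG0s2 livers too (log2 fold change -1.32, SE 0.244, adjusted p 0.0024 by edgeR's quasi-likelihood test). None of the 10 hepatocyte markers was at 0 in every sample, and their summed level lay between 33043 and 65712 CPM.

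The DNA letters just upstream of the genes were read from RefSeq promoters (GRCm38.p6), 250 bases before to 50 bases after the start, which were at hand for 30 of the 42 members. The ISRE core was searched on both strands as GAAA, any 2 bases and GAAA. It was present in 14 of 23 type I class genes and in 6 of 7 GTPase genes. The share was 3.44% of all 32851 promoters, or 3.99% of the 27025 genes they belong to. The GAS letters TTCNNNGAA, which read the same on both strands, were present in 5 of 23 and 3 of 7, against 8.30% of all promoters and 9.55% of genes. Both motifs stood together in Eif2ak2, Oas1a and Bst2 and in the GTPase genes Igtp, Irgm2 and Gbp7, against 0.454% of all promoters, a share counted per promoter only. A match of letters is a description and does not show that a factor binds. The 6 stretches below, 3 in each class, belong to genes with a match whose values are given in every sample, taken in order of TPM. Capitals mark the ISRE core on either strand, overlapping copies included, and in Igtp the GAS letters followed by the ISRE core.
Stat2, chr10:128270261-128270300, plus strand: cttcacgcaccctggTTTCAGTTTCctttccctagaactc
Isg15, chr4:156200860-156200911, minus strand: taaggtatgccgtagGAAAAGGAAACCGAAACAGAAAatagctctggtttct
Trim30a, chr7:104465205-104465244, minus strand: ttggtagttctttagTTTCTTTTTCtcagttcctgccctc
Igtp, chr11:58199496-58199546, plus strand: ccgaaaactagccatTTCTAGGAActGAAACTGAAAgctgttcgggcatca
Irgm1, chr11:48871421-48871465, minus strand: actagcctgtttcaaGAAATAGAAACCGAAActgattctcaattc
Gbp2, chr3:142620589-142620628, plus strand: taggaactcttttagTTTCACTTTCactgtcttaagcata

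Per transcript length, the same 3 genes led in every group. On the deposited TPM scale, which corrects for length, Bst2, which tethers budding virus to the cell surface, averaged 627 TPM in shG0s2, 579 in shRgs16 and 384 in shLacZ. Ifi27, a mitochondrial membrane protein, averaged 405, 376 and 364 TPM in these groups, and the GTPase Iigp1, which attacks the vacuoles of parasites, 402, 266 and 264 TPM. The lowest member in each group was Oas3, a synthase of the 2'-5' oligoadenylates that switch on RNA decay, at 4.08, 4.03 and 1.93 TPM. Irf7 (60.9 TPM), Ifi27l2a (46.3 TPM) and Igtp (45.2 TPM) followed the leaders in shLacZ, and their sample ranges overlapped there. In shG0s2 the GTPase Igtp was at place 4 of 42 at 138 TPM, and Gbp6 at place 10 at 55.4 TPM, against places 22 in shRgs16 (19.5 TPM) and 18 in shLacZ (16.7 TPM). TPM values of all tested genes were themselves shifted, by a median log2 ratio of 0.68 for shG0s2 over shLacZ, 0.42 for shRgs16 over shLacZ and 0.28 for shG0s2 over shRgs16 (pseudocount 0.1). TPM is therefore used here to order genes within a group, not to compare groups.

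**Figure D1:**
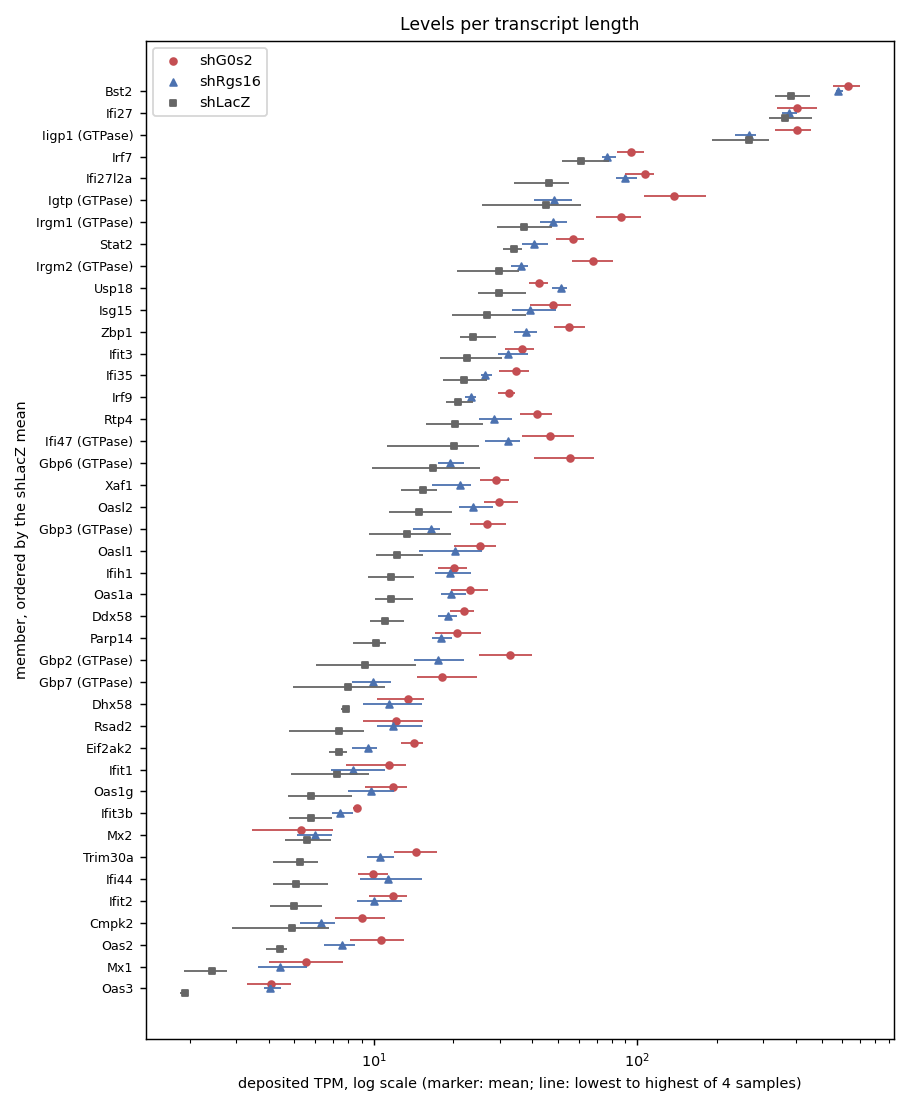
Level of each of the 42 members per transcript length: deposited TPM on a log axis, with the mean as a marker and the lowest to highest of 4 samples as a line, ordered by the shLacZ mean. Bst2, Ifi27 and Iigp1 lead in each group, Oas3 is last, and the GTPases Igtp and Gbp6 stand higher in the order in shG0s2.

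The interferons themselves were barely sequenced. Of 21 interferon genes, 18 had no count in any of the 12 samples, among them Ifnb1 and all 14 alpha interferon genes of the list, and none of the 21 passed the filter on low counts. A count of 0 allows up to 3 counts, a level of 0.110 to 0.163 CPM of the library total, so lower levels were not detectable at this depth. Ifng, the gene for interferon-gamma, had 4, 13, 7 and 16 counts in shG0s2, 5, 9, 9 and 5 in shRgs16, and 0, 2, 5 and 0 in shLacZ. Every shRgs16 sample, and 3 of 4 shG0s2 samples, had at least as many Ifng counts as the highest shLacZ sample, at counts too low to test.

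Both chains of the interferon-gamma receptor were higher in both knockdowns, and no chain of the type I receptor was on the TMM scale, while on library size alone both type I chains were higher in both knockdowns. On the log2 scale Ifngr1 rose by 0.69 (SE 0.0784, adjusted p 1.12e-05) in shG0s2 and by 0.54 (SE 0.0753, adjusted p 0.000119) in shRgs16 against shLacZ, and Ifngr2 by 0.44 (adjusted p 0.000351) and 0.42 (adjusted p 0.00037), all by edgeR. For Ifnar1 the changes were -0.07 (adjusted p 0.318; 0.42 on library size) and -0.09 (adjusted p 0.167; 0.21 on library size). Ifnar2 fell by 0.30 on the log2 scale in shG0s2 (adjusted p 0.00123; it stood 0.19 higher on library size) and stood at -0.04 in shRgs16 (adjusted p 0.628; 0.26 on library size). Ifnlr1, the receptor chain for lambda interferon, averaged 3.19 ± 1.13 CPM in shG0s2, 0.802 ± 0.38 in shRgs16 and 0.332 ± 0.134 in shLacZ (SD, n = 4 each). It rose in both knockdowns (log2 fold changes 3.24, adjusted p 8.9e-06, and 1.25, adjusted p 0.0301), the second of which was lost without shLacZ replicate 1 or 2.

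Irf1, which carries the gamma signal onward, had log2 fold changes of 0.33 (adjusted p 0.019) for shG0s2 over shLacZ, 0.24 (adjusted p 0.0617) for shRgs16 over shLacZ and 0.08 (adjusted p 0.529) for shG0s2 over shRgs16, by edgeR, the first lost without shG0s2 replicate 1 or 4. Socs1, a brake on JAK kinases, rose in both knockdowns against shLacZ (1.15, adjusted p 0.018, and 0.95, adjusted p 0.0355), at 1.65 ± 0.594 CPM in shG0s2, 1.45 ± 0.312 in shRgs16 and 0.747 ± 0.379 in shLacZ (SD, n = 4 each). These calls were lost without shG0s2 replicate 4, and without 5 of the 8 samples in shRgs16.

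Against shLacZ, the type I class leaned upward in both knockdowns by calls and medians, and the GTPases did so in shG0s2. In shG0s2 livers 15 of 33 type I class members rose and 2 fell past an adjusted p of 0.05 (edgeR), where 31.3% of 15592 tested genes rose and 29.2% fell (60.5% in either direction), and their median log2 fold change was 0.25 against 0.01 for all tested genes. In shRgs16 livers 14 of 33 rose and 3 fell, where 24.6% of 15324 tested genes rose and 24.5% fell (49.1% in either direction), and the median was 0.25 against 0.01. Of the 9 GTPases 4 rose and none fell in shG0s2 (median 0.54), a share of 44.4%, and none rose and 1 fell in shRgs16 (median -0.10). At an unadjusted p under 0.05 by edgeR, and at an adjusted p by DESeq2, 0 GTPases fell in shG0s2 and 0 rose in shRgs16. On library size alone the type I class had 29 higher and 0 lower in shG0s2 and 21 higher and 0 lower in shRgs16. The GTPases had 9 higher in shG0s2 and 1 higher and 0 lower in shRgs16. Most or many genes were higher on that scale: 10067 of 15592 tested genes in shG0s2 (1246 lower) and 7686 of 15324 in shRgs16 (1279 lower). With no filter on low counts 2 GTPases rose in shG0s2. All 42 members passed the filter on low counts in each comparison. Both comparisons use the same 4 shLacZ samples, so their values below stand side by side and are not independent. In shG0s2 6 of 33 type I class members were higher with no overlap between the samples of the groups, and 2 were lower. Both shares lay below the 28.2% and 27.4% of all tested genes. In shRgs16 11 were higher and 3 lower without overlap, against 22.2% and 22.7% of all tested genes. With 1 sample left out, the type I members that rose numbered 8 (without shG0s2 replicate 3) to 14 in shG0s2 and 8 (without shRgs16 replicate 2) to 17 (without shLacZ replicate 3) in shRgs16, and the GTPases that rose in shG0s2 numbered 2 (without shG0s2 replicate 4) to 5.

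**Figure D2:**
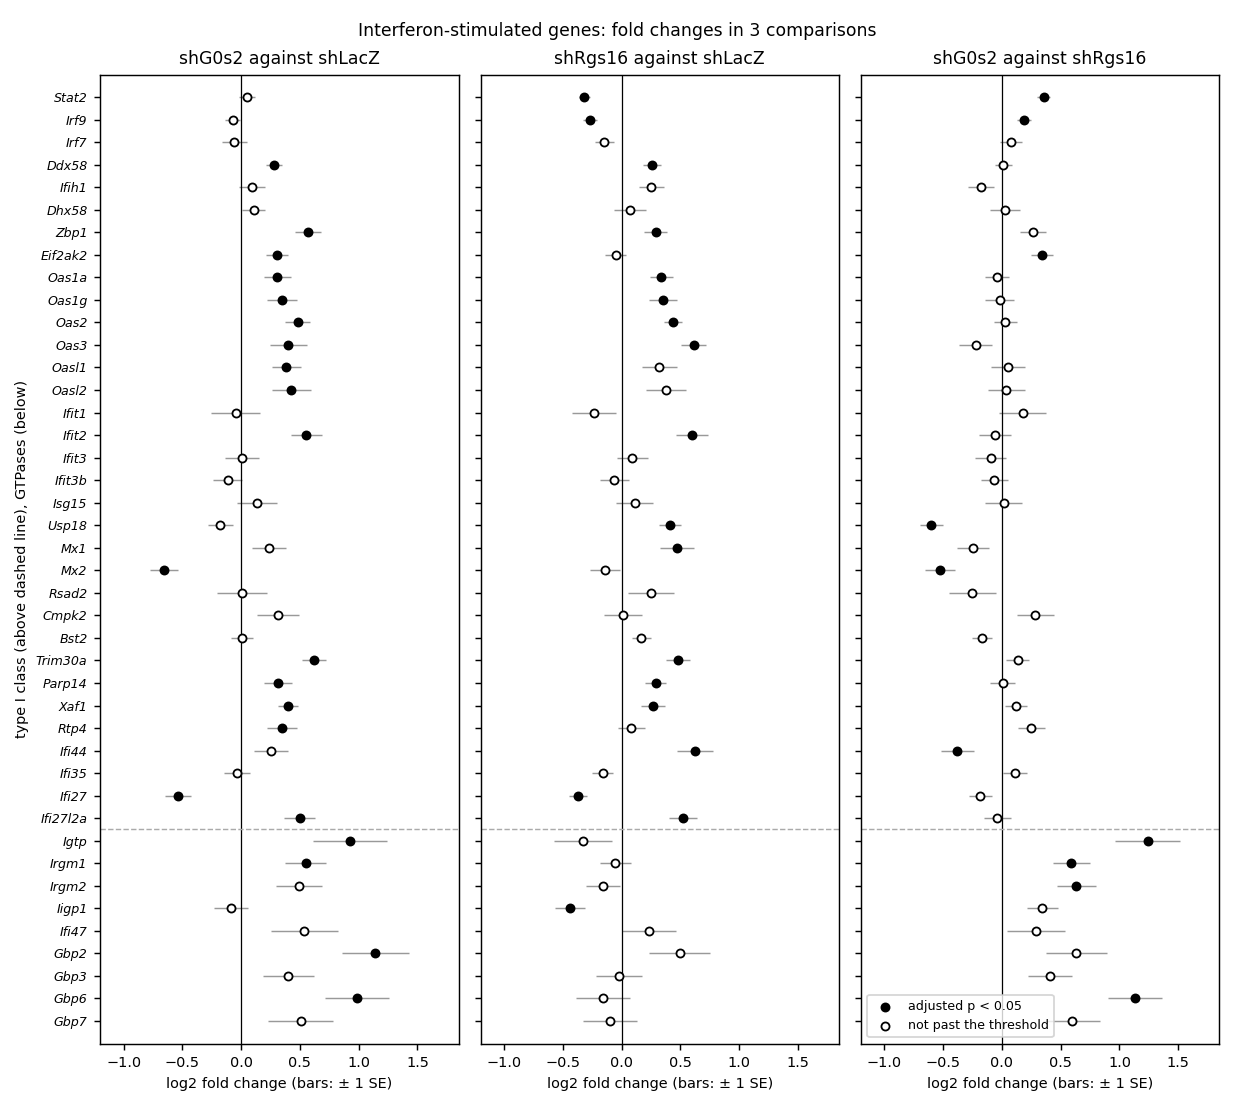
Log2 fold change of each member on the TMM scale in the 3 comparisons, with bars of 1 SE (edgeR, n = 4 per group); filled points have an adjusted p under 0.05, and GTPases lie below the dashed line. The GTPases lie right of 0 in shG0s2 against shRgs16 (9 of 9), while the type I class lies on both sides (18 above 0 and 15 below).

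Neither the ISGF3 subunits STAT2 and IRF9 nor IRF7, the factor that amplifies interferon production, rose against shLacZ on the TMM scale, while on library size alone all 3 were higher in shG0s2 (0.54, 0.41 and 0.43). Stat2 had 82.6, 96.0, 99.9 and 98.6 CPM in shG0s2, 73.9, 73.3, 73.1 and 74.5 CPM in shRgs16, and 91.4, 92.2, 92.8 and 90.2 CPM in shLacZ. Irf9 had 44.0, 45.4, 48.6 and 47.8 CPM in shG0s2, 40.3, 42.1, 40.0 and 41.2 CPM in shRgs16, and 45.3, 50.3, 52.8 and 48.2 CPM in shLacZ. For both genes all shRgs16 samples lay below every other sample. Stat2 was 0.32 lower (log2, SE 0.0451, adjusted p 0.000135) and Irf9 0.27 lower (SE 0.0603, adjusted p 0.00302) in shRgs16 than in shLacZ by edgeR, while on library size alone these values were -0.02 and 0.03. In shG0s2 the changes were 0.05 (adjusted p 0.534) and -0.07 (adjusted p 0.35). Irf7 had 88.9, 101, 116 and 89.2 CPM in shG0s2, 90.4, 96.4, 94.3 and 92.8 CPM in shRgs16, and 97.0, 103, 123 and 90.5 CPM in shLacZ, and the 3 groups overlapped (adjusted p 0.67 and 0.15 against shLacZ).

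Among 5 sensors of foreign RNA and Z-form nucleic acid, 3 rose in shG0s2 and 2 in shRgs16, where 31.3% and 24.6% of all tested genes rose. Zbp1, which binds Z-form nucleic acid and can start necroptosis, had 35.2, 34.7, 47.2 and 37.8 CPM in shG0s2, 29.5, 34.3, 29.2 and 36.1 CPM in shRgs16, and 22.3, 26.1, 30.0 and 26.9 CPM in shLacZ. The shG0s2 samples lay above all shLacZ samples, and the shRgs16 samples overlapped them. Its log2 fold change was 0.57 (SE 0.113, adjusted p 0.00109) in shG0s2 and 0.29 (SE 0.0984, adjusted p 0.0279) in shRgs16, the second lost without shLacZ replicate 1 or 2 or shRgs16 replicate 2 or 4. Ddx58, which encodes the RNA sensor RIG-I, rose by 0.28 (adjusted p 0.00368) and 0.26 (adjusted p 0.0157, lost without shRgs16 replicate 2). Eif2ak2, the kinase PKR that halts translation, rose by 0.30 in shG0s2 (adjusted p 0.0135) and stood at -0.05 in shRgs16 (adjusted p 0.666). The RNA helicases Ifih1 and Dhx58 passed in neither comparison, with log2 fold changes of 0.07 to 0.25.

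The OAS family, whose products make oligoadenylates or resemble the enzymes that do, lay above shLacZ in both knockdowns. All 6 members rose in shG0s2 and 4 of 6 in shRgs16, with log2 fold changes of 0.31 to 0.48 and of 0.32 to 0.61, where 31.3% and 24.6% of all tested genes rose. Oas3 had 9.14, 9.10, 14.4 and 11.7 CPM in shG0s2, 11.7, 14.2, 13.3 and 12.7 CPM in shRgs16, and 9.21, 9.11, 8.62 and 6.92 CPM in shLacZ. Every shRgs16 sample lay above every shLacZ sample (0.61, SE 0.11, adjusted p 0.00068), while 2 of 4 shG0s2 samples lay within the shLacZ range (0.40, SE 0.157, adjusted p 0.0437). Oas2 was called in both (0.48, adjusted p 0.00199, and 0.44, adjusted p 0.0007) and was kept with any 1 sample left out. In shG0s2 the calls of Oas1a, Oas1g, Oas3, Oasl1 and Oasl2 were each lost without shG0s2 replicate 3 and without at least 2 other samples, and in shRgs16 that of Oas1g without shRgs16 replicate 2 or shLacZ replicate 1, 2 or 4. Oas1a and Oas1g are near copies of each other, so the split of reads between them is uncertain.

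Of the IFIT family, which binds viral RNA that lacks the marks of the host's own, only Ifit2 passed. That is 1 of 4 (25%) in each knockdown, where 31.3% of all tested genes rose in shG0s2 and 24.6% in shRgs16. Ifit2 had 20.4, 26.6, 27.9 and 24.3 CPM in shG0s2, 23.9, 31.4, 25.5 and 22.4 CPM in shRgs16, and 13.9, 17.5, 21.1 and 15.4 CPM in shLacZ. All shRgs16 samples lay above the shLacZ samples, and 1 shG0s2 sample lay within them. The rise was 0.55 (SE 0.133, adjusted p 0.00378) and 0.60 (SE 0.138, adjusted p 0.00444) on the log2 scale, and it held with any 1 sample left out. Ifit1, Ifit3 and Ifit3b had log2 fold changes between -0.23 and 0.09 with adjusted p of 0.329 to 0.964. Ifit3 and Ifit3b are near copies, so reads may be divided between them in error.

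The ISG15 system, a ubiquitin-like tag and the protease that removes it and also damps IFNAR signalling, showed 1 call. It was a rise in shRgs16 (1 of 2 genes, where 24.6% of all tested genes rose). In shG0s2 0 of 2 rose, where 31.3% of all tested genes did. Isg15 had 12.4, 14.3, 18.4 and 15.1 CPM in shG0s2, 13.9, 17.9, 13.2 and 14.6 CPM in shRgs16, and 10.4, 13.8, 18.3 and 12.7 CPM in shLacZ. The groups overlapped, and neither difference passed (0.14, SE 0.171, adjusted p 0.514, and 0.11, SE 0.159, adjusted p 0.592). Usp18 had 36.5, 36.1, 44.0 and 38.0 CPM in shG0s2, 55.1, 57.5, 59.0 and 62.7 CPM in shRgs16, and 38.1, 41.7, 54.1 and 42.2 CPM in shLacZ. All shRgs16 samples lay above all others, with a rise of 0.41 over shLacZ (SE 0.0951, adjusted p 0.00393). In shG0s2 Usp18 stood at -0.18 (SE 0.106, adjusted p 0.167; 0.30 on library size).

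Other antiviral effectors moved both ways. Of 13, 5 rose and 2 fell in shG0s2, and 6 rose and 1 fell in shRgs16. As shares, 38.5% rose in shG0s2, near the 31.3% of all tested genes, and 46.2% in shRgs16, against 24.6%, while 15.4% and 7.69% fell, against 29.2% and 24.5%. Trim30a, a TRIM protein that restrains inflammatory signalling, had 26.2, 31.6, 31.2 and 27.8 CPM in shG0s2, 24.4, 29.8, 25.1 and 27.1 CPM in shRgs16, and 15.8, 17.9, 21.3 and 21.3 CPM in shLacZ. Both knockdowns lay above shLacZ in every sample, with rises of 0.62 (SE 0.104, adjusted p 0.000248) and 0.48 (SE 0.103, adjusted p 0.00242). Ifi27l2a, a relative of Ifi27, had 12.9, 13.8, 14.6 and 11.1 CPM in shG0s2, 14.03, 14.1, 13.0 and 12.8 CPM in shRgs16, and 10.8, 9.06, 10.4 and 7.15 CPM in shLacZ. It too did not overlap shLacZ, with rises of 0.50 (SE 0.133, adjusted p 0.00622) and 0.52 (SE 0.12, adjusted p 0.00343). Trim30a and Ifi27l2a belong to families of close copies, so their levels are uncertain where reads are shared. Xaf1 and Parp14 rose in both comparisons as well (0.40 and 0.31 in shG0s2, 0.27 and 0.29 in shRgs16, adjusted p 0.00175 to 0.046). Of those 4 values only that of Xaf1 in shG0s2 was kept with any 1 sample left out; both shRgs16 calls were lost without shRgs16 replicate 2, and that of Parp14 in shG0s2 without shG0s2 replicate 3, among others.

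The lower genes were Ifi27 and Mx2; both Mx genes are known to carry defective alleles in most inbred mouse strains. Ifi27 had 124, 160.4, 163 and 131 CPM in shG0s2, 157, 167, 169 and 165 CPM in shRgs16, and 189.8, 213, 249 and 196 CPM in shLacZ. Every knockdown sample lay below every shLacZ sample, with falls of 0.54 (log2, SE 0.11, adjusted p 0.00134) in shG0s2 and 0.37 (SE 0.0793, adjusted p 0.00228) in shRgs16. On library size alone these were -0.05 and -0.07, short of the threshold. Mx2, a GTPase of the Mx family that blocks viruses, had 4.75, 5.92, 4.89 and 5.06 CPM in shG0s2, 5.92, 8.07, 7.83 and 7.88 CPM in shRgs16, and 7.12, 7.79, 9.11 and 8.61 CPM in shLacZ. All shG0s2 samples lay below the shLacZ samples (fall of 0.66, SE 0.122, adjusted p 0.000543, against -0.17 on library size), and the shRgs16 samples overlapped them (-0.14, adjusted p 0.393).

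Mx1 and Ifi44 were called in shRgs16. Mx1, a paralog of Mx2, had 6.76, 5.74, 7.005 and 5.96 CPM in shG0s2, 7.39, 8.77, 7.24 and 6.88 CPM in shRgs16, and 4.56, 6.42, 6.23 and 4.61 CPM in shLacZ. The shRgs16 samples lay above shLacZ (0.47, SE 0.145, adjusted p 0.0183), a call lost without shLacZ replicate 1 or shRgs16 replicate 2, and in shG0s2 the value was 0.23 (adjusted p 0.183). Ifi44, an interferon-induced GTP-binding protein, had 14.5, 14.6, 17.6 and 14.7 CPM in shG0s2, 17.2, 23.8, 19.5 and 19.3 CPM in shRgs16, and 10.3, 13.8, 16.8 and 10.97 CPM in shLacZ. Again only the shRgs16 samples cleared the shLacZ range (0.62, SE 0.153, adjusted p 0.00664, against 0.25, adjusted p 0.145, in shG0s2). Rtp4 rose in shG0s2 (0.35, adjusted p 0.0304, lost without shG0s2 replicate 3 or 4 or shLacZ replicate 1 or 4). Rsad2, whose product viperin makes a chain-ending nucleotide, its neighbour Cmpk2, Bst2 and Ifi35 passed in neither comparison, with log2 fold changes of -0.16 to 0.31.

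**Figure D3:**
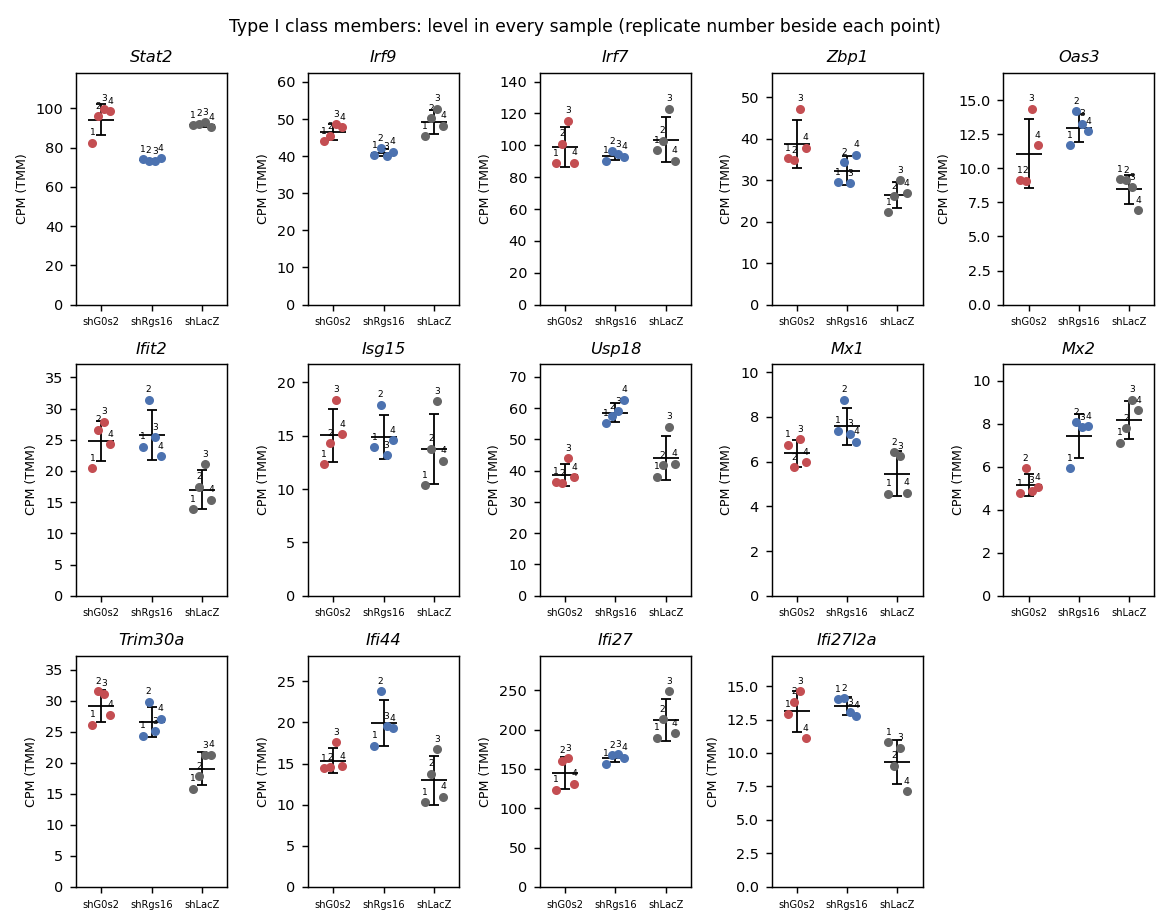
CPM on the TMM scale of the 14 type I class members given in full, with 1 point per sample, its replicate number beside it, and the mean with bars of 1 SD (n = 4). Trim30a and Ifi27l2a are higher and Ifi27 is lower in every knockdown sample than in every shLacZ sample, Stat2 is lowest in shRgs16 (73.1 to 74.5 CPM), and Isg15 overlaps throughout.

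Interferon-gamma GTPases guard vacuoles that hold parasites or bacteria, the IRG proteins as regulators (Igtp, Irgm1, Irgm2) or effectors (Iigp1), and the GBP proteins as coats on the vacuole. Igtp had 123, 112, 215 and 177 CPM in shG0s2, 55.6, 64.0, 67.1 and 78.6 CPM in shRgs16, and 48.1, 80.1, 107 and 97.9 CPM in shLacZ. The shG0s2 samples lay above every other sample. The log2 fold change over shLacZ was 0.92 (SE 0.315, adjusted p 0.039) in shG0s2, lost without shG0s2 replicate 3 or 4 or shLacZ replicate 2 or 4, and -0.33 (SE 0.247, adjusted p 0.31) in shRgs16. Irgm1 had 87.2, 87.9, 131 and 116 CPM in shG0s2, 62.6, 70.2, 66.6 and 80.9 CPM in shRgs16, and 58.5, 64.9, 88.2 and 78.7 CPM in shLacZ. Here 2 of 4 shG0s2 samples fell just under the highest shLacZ sample, and the rise of 0.55 (SE 0.176, adjusted p 0.0249) was lost without shG0s2 replicate 4 or shLacZ replicate 1 or 2.

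Gbp2 and Gbp6 kept their rise in shG0s2 with any 1 sample left out. Gbp2 had 41.1, 34.4, 59.8 and 58.2 CPM in shG0s2, 25.4, 33.9, 26.2 and 39.5 CPM in shRgs16, and 14.6, 21.2, 32.7 and 19.8 CPM in shLacZ. All shG0s2 samples exceeded all shLacZ samples (1.14, SE 0.285, adjusted p 0.0101), and the shRgs16 samples overlapped both groups (0.50 over shLacZ, SE 0.259, adjusted p 0.153). Gbp6 had 82.5, 101, 138 and 116 CPM in shG0s2, 45.2, 53.9, 46.7 and 53.7 CPM in shRgs16, and 34.6, 51.6, 79.4 and 56.8 CPM in shLacZ. It rose by 0.99 (SE 0.269, adjusted p 0.0156) in shG0s2 and stood at -0.16 (SE 0.229, adjusted p 0.599) in shRgs16. Gbp6 has a close copy in Gbp10, which did not pass in shG0s2 (0.28, SE 0.389, adjusted p 0.565), so reads may be divided between the 2 genes in error.

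Iigp1 and the other GTPases were not called in shG0s2. Iigp1 had 568, 609, 793 and 699.6 CPM in shG0s2, 459, 514, 571 and 562 CPM in shRgs16, and 533, 709, 795 and 817 CPM in shLacZ. The groups overlapped, with shLacZ replicate 1 below the other shLacZ samples. Iigp1 was lower in shRgs16 by 0.44 (SE 0.127, adjusted p 0.0143, kept with any 1 sample left out, and -0.14 on library size) and stood at -0.09 in shG0s2 (adjusted p 0.63, and 0.40 on library size). Irgm2, Ifi47, Gbp3 and Gbp7 had log2 fold changes of 0.40 to 0.54 in shG0s2 with adjusted p of 0.0604 to 0.152, and of -0.16 to 0.23 in shRgs16 with adjusted p of 0.406 to 0.932.

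**Figure D4:**
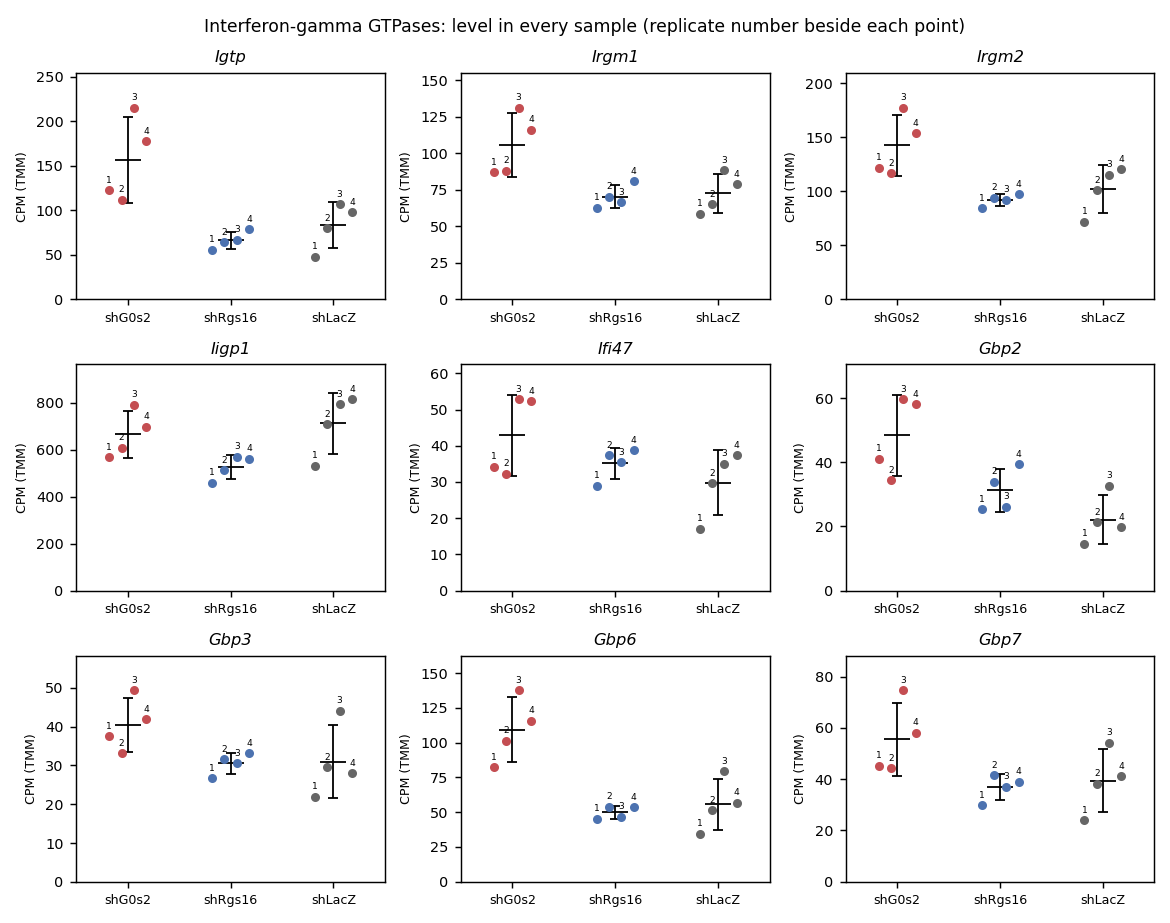
CPM on the TMM scale of the 9 interferon-gamma GTPases, with 1 point per sample, its replicate number beside it, and the mean with bars of 1 SD (n = 4). shG0s2 replicate 3 is the highest shG0s2 sample for all 9 genes, and replicate 1 is the lowest sample of shRgs16 and of shLacZ for all 9.

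Set directly against each other, the knockdowns differed in Igtp, Gbp6, Irgm1 and Irgm2, all higher in shG0s2. The few calls in the type I class were divided in direction. In shG0s2 livers 4 of 9 GTPases were higher than in shRgs16 livers and 0 were lower (0 also at an unadjusted p and by DESeq2), where 21.0% of 16018 tested genes were higher and 20.5% lower, and all 9 had positive log2 fold changes, with a median of 0.59 against 0.01 for all tested genes. Igtp was higher by 1.24 (SE 0.276, adjusted p 0.00505), Gbp6 by 1.13 (SE 0.23, adjusted p 0.00282), Irgm2 by 0.63 (SE 0.166, adjusted p 0.0098) and Irgm1 by 0.59 (SE 0.159, adjusted p 0.0111), by edgeR in a fit of all 12 samples. These 4 calls were kept with any 1 sample left out, and the samples of the groups did not overlap for them and for Gbp7 (5 genes, against 20.4% of all tested genes). On library size the values were 1.44, 1.33, 0.83 and 0.79. Gbp2 stood at 0.63 (SE 0.263, adjusted p 0.0796) and Iigp1 at 0.34 (SE 0.133, adjusted p 0.053).

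In the type I class 3 of 33 genes were higher in shG0s2 than in shRgs16 and 3 were lower, shares of 9.09% in each direction, with a median of 0.01. Both shares lay below those of all tested genes, 21.0% higher and 20.5% lower. On library size alone 9 type I class genes were higher and 1 was lower, and 8 GTPases were higher. Of 16018 tested genes 6054 were higher and 1568 lower on that scale, so the share of type I class genes higher lay below that of all tested genes. On the TMM scale the higher type I class genes were Stat2 (0.35, SE 0.0577, adjusted p 0.000162), Eif2ak2 (0.34, SE 0.0917, adjusted p 0.00728) and Irf9 (0.18, SE 0.0586, adjusted p 0.0193), the last lost without shG0s2 replicate 3 or 4 or shRgs16 replicate 1 or 3. The lower ones were Usp18 (fall of 0.60, SE 0.0954, adjusted p 0.000142), Mx2 (0.53, SE 0.127, adjusted p 0.00354) and Ifi44 (0.38, SE 0.139, adjusted p 0.0401), the last lost without any of 6 of the 8 samples. For the OAS family no member passed, with values from -0.22 to 0.05. A p past the threshold for one class and not the other does not by itself test the difference between classes, which was not tested.

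Replicates moved together across the members. Within shG0s2, replicate 3 was the highest sample for 26 of 33 type I class members and for all 9 GTPases, and replicate 1 was the lowest for 26 type I class members. Within shRgs16, replicate 2 was highest for 27 type I class members, while replicate 4 was highest for 6 of 9 GTPases and replicate 1 lowest for all 9. Within shLacZ, replicate 3 was highest for 22 type I class members and 6 GTPases, and replicate 1 was lowest for 25 and 9. The coefficient of variation over 4 samples had a median of 21.3% in shG0s2, 11.2% in shRgs16 and 30.4% in shLacZ for the GTPases, and of 12.6%, 9.33% and 14.1% for the type I class, against 9.21%, 9.06% and 10.02% over 14159 genes. The spread was widest for the GTPases in shLacZ, where the highest sample was a median of 2.18 times the lowest.

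**Figure D5:**
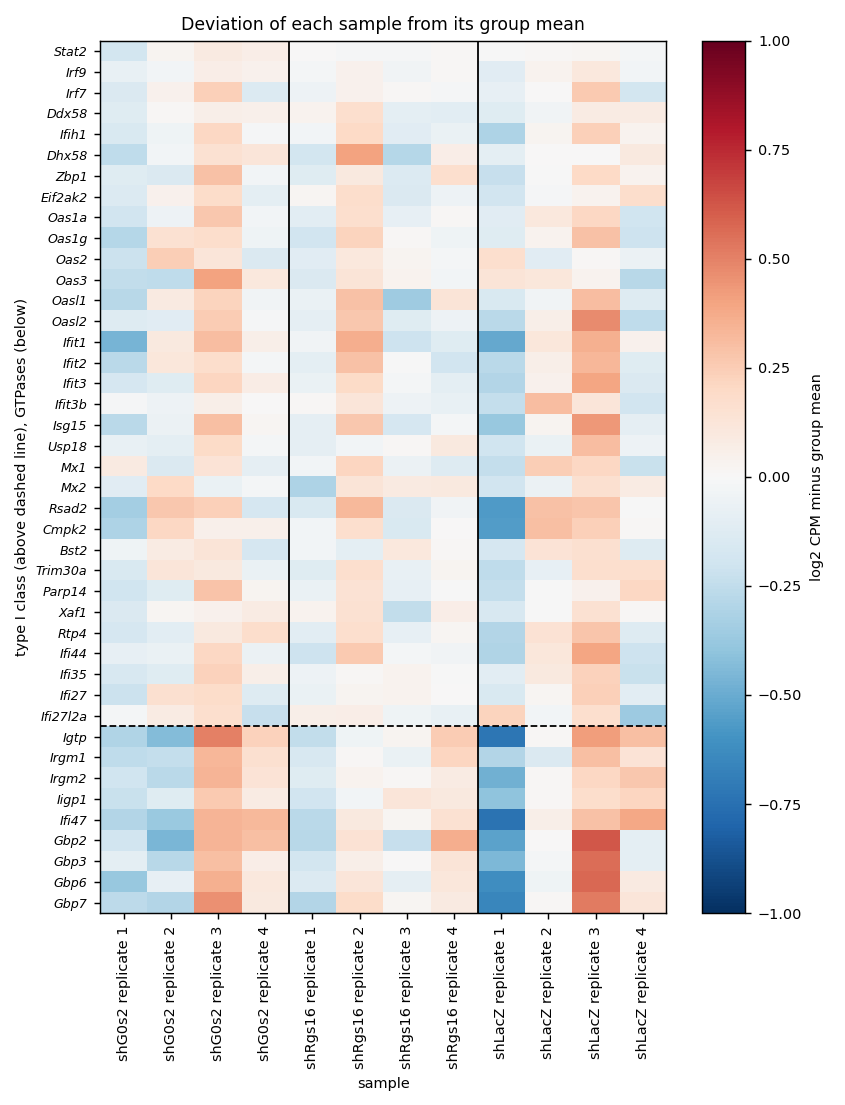
Log2 CPM of each member in each sample minus the mean of its group, on a colour scale from -1 to 1, with GTPases below the dashed line and groups divided by vertical lines. Whole columns share a colour: shG0s2 replicate 3 and shLacZ replicate 3 are mostly above their group means, and shG0s2 replicate 1 and shLacZ replicate 1 mostly below.

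Other interferon targets that are not members were counted from 2 further lists. Of 36 further interferon-induced effectors, 25 rose and 2 fell in shG0s2 (median log2 fold change 0.40), and 19 rose and 3 fell in shRgs16 (median 0.27). Those that rose were 69.4% in shG0s2, where 31.3% of all tested genes rose and 29.2% fell, and 52.8% in shRgs16, where 24.6% rose and 24.5% fell. Samd9l, a restriction factor of poxviruses, rose by 1.10 (SE 0.0864, adjusted p 6.44e-07) in shG0s2 and 0.60 (SE 0.128, adjusted p 0.00272) in shRgs16, and Lgals3bp rose by 0.76 (adjusted p 8.46e-07) in shG0s2 and stood at 0.13 (adjusted p 0.124) in shRgs16. Ifitm3, which blocks entry of viruses through endosomes, went the other way in the 2 knockdowns: it fell by 0.34 in shG0s2 (adjusted p 0.00242; 0.14 on library size) and rose by 0.28 in shRgs16 (adjusted p 0.00212), with a fall of 0.63 in shG0s2 against shRgs16 (adjusted p 7.5e-06). Sp110 (0.85 and 0.72), Apobec3 (0.97 and 0.81) and Ifi204 (0.45 and 0.64) rose in both knockdowns. Of further GTPases and gamma targets, 8 of 19 tested rose and 1 fell in shG0s2, and 5 of 18 rose in shRgs16. These were 42.1% in shG0s2, against 31.3% of all tested genes, and 27.8% in shRgs16, a share near the 24.6% of all tested genes. Gbp8 rose by 1.12 in both knockdowns. Gbp4 (1.06, adjusted p 9.55e-06) and Tgtp2 (1.40, adjusted p 0.00138, a near copy of Tgtp1) rose in shG0s2, against 0.25 (adjusted p 0.0771) and 0.22 (adjusted p 0.403) in shRgs16. Ciita, the switch for MHC class II genes, rose in both (1.97, adjusted p 2.4e-06, and 1.14, adjusted p 0.000166), while the chemokine gene Cxcl10 rose in shRgs16 (1.29, adjusted p 0.00394) and stood at 0.50 (adjusted p 0.0628) in shG0s2.

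Genes that sense viral nucleic acid and pass the signal on rose more often than they fell. Of 12 tested, 8 rose and 1 fell in shG0s2, and 6 rose and 1 fell in shRgs16. Those that rose were 66.7% in shG0s2 and 50% in shRgs16, and those that fell were 8.33% in each. Of all tested genes 31.3% rose and 29.2% fell in shG0s2, and 24.6% rose and 24.5% fell in shRgs16. Of 5 other interferon regulatory factors, 3 rose and 2 fell in shG0s2 (60% and 40%), and 2 rose and 2 fell in shRgs16 (40% each). A list of 8 genes, most of them negative regulators, had 3 that rose in shG0s2 and 4 in shRgs16. These were 37.5%, near the share of all tested genes, and 50%. Tmem173, which encodes STING, rose in both knockdowns (1.20, adjusted p 2.15e-05, and 0.94, adjusted p 0.000231), as did the endosomal RNA sensor Tlr7 (0.68 and 0.83). Mavs, the adaptor of RIG-I, fell in both, by 0.69 (adjusted p 1.71e-05) and 0.75 (adjusted p 6.23e-05). Among the other interferon regulatory factors Irf8, which marks myeloid cells, rose (1.11 and 0.84), and Irf2 (-0.67 and -0.31) and Irf3 (-0.50 and -0.28) were lower, with Irf3 at -0.01 and 0.02 and Irf2 in shRgs16 at -0.0099 on library size alone. Socs3 rose in shRgs16 (0.84, adjusted p 0.00448) and stood at 0.13 (adjusted p 0.668) in shG0s2. Il10rb, the second chain of the lambda receptor, rose in both (1.001 and 0.60), and so did the phosphatase gene Ptpn6 (0.56 and 0.32). Between the knockdowns, Tyk2 (0.36), Tbk1 (0.32) and Ikbke (0.43), all kinases of the pathway, were higher in shG0s2 than in shRgs16 and the adaptor gene Myd88 was lower by 0.26, at adjusted p of 0.000332 to 0.0107.

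Markers of T and NK cells and of macrophages were higher in both knockdowns, while those of neutrophils were not called and few of B cells were. Of all tested genes 31.3% rose and 29.2% fell in shG0s2, and 24.6% rose and 24.5% fell in shRgs16. The 16 T and NK cell markers summed to 52.4 to 59.4 CPM in shG0s2, 48.3 to 68.0 CPM in shRgs16 and 13.5 to 36.6 CPM in shLacZ, and 12 of 15 tested rose in shG0s2 and 13 of 15 in shRgs16. The 12 macrophage and Kupffer cell markers summed to 1516 to 1769, 1428 to 1622 and 1019 to 1125 CPM in these groups, with 11 of 12 and 10 of 11 rising. The 8 markers of plasmacytoid dendritic cells summed to 445 to 556, 278 to 292 and 215 to 263 CPM, with 3 of 7 tested rising in each knockdown. Of these Ly6d, also a surface protein of early B-lineage cells, lay at 213 to 303.7, 6.85 to 24.6 and 5.41 to 6.33 CPM. It rose by 5.43 on the log2 scale in shG0s2 (SE 0.135, adjusted p 7.92e-10) and by 1.79 in shRgs16 (SE 0.406, adjusted p 0.00924), and Bst2 is itself a member. Without Ly6d and Bst2, a choice made after their values were seen, the other 6 summed to 27.1 to 32.8, 25.2 to 31.1 and 20.5 to 23.3 CPM. The 6 B cell markers summed to 9.27 to 15.8, 11.3 to 15.5 and 5.63 to 9.56 CPM, with 1 of 6 rising in shG0s2 and 2 of 6 in shRgs16. The 6 neutrophil markers summed to 28.6 to 47.3, 14.3 to 38.1 and 14.01 to 40.2 CPM, and the 5 tested did not pass in either knockdown (median 0.50 in shG0s2 and -0.03 in shRgs16, edgeR adjusted p 0.0717 to 0.511 and 0.173 to 0.966). At an unadjusted p under 0.05 Camp alone passed, in shG0s2, and on library size 4 were higher in shG0s2 and 1 in shRgs16. On library size 10067 of 15592 and 7686 of 15324 tested genes were higher in these comparisons. The 8 sinusoidal endothelial markers summed to 336 to 417, 374 to 530.3 and 384 to 405 CPM, with 1 rising and 2 falling in shG0s2 (Oit3 and Kdr, at 0.08 and 0.10 on library size alone) and 3 rising in shRgs16. Hepatocyte markers fell in 9 of 10 cases in shG0s2 and in 7 of 10, with 2 rising, in shRgs16, where 3 fell on library size alone. Alb, the albumin gene, stood at 0.08 (adjusted p 0.732) in shG0s2 and rose by 0.33 (adjusted p 0.0226) in shRgs16. The sum of these markers was 33043 to 54791, 59746 to 65582 and 53939 to 65712 CPM. No marker of these lists was at 0 in every sample, and in bulk tissue fewer cells of a type and less RNA per cell cannot be told apart. Between shG0s2 and shRgs16, where the GTPases differed, none of the T and NK cell markers was higher in shG0s2 and 2 (Gzma and Gzmb) were lower, 2 of 12 macrophage markers were higher (11 on library size alone), and 7 of 10 hepatocyte markers were lower. On library size alone 6054 of 16018 tested genes were higher in this comparison. On the TMM scale 21.0% were higher and 20.5% lower. Against these stood 16.7% of macrophage markers higher, 13.3% of T and NK cell markers lower and 70% of hepatocyte markers lower. The part of these cells in the members' results was not tested.

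In the authors' deposited table, 14 type I class members were higher and 2 lower in shG0s2 at an adjusted p under 0.05, and 13 were higher and 3 lower in shRgs16. Of the GTPases 5 were higher in shG0s2 and 1 was lower in shRgs16 in the authors' deposited table. The share of all genes past this threshold was not counted there. The authors' deposited table marks only Gbp2 in shG0s2 as significant among all 42 members (log2 fold change 1.13, authors' adjusted p 0.000849). Trim30a in shG0s2 (0.61, authors' adjusted p 1.29e-06) and Stat2 in shRgs16 (-0.32, authors' adjusted p 7.56e-10) are unmarked. The mark therefore does not rest on the adjusted p alone.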

How the data were processed

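Total RNA of 12 mouse liver samples was depleted of ribosomal RNA and sequenced, per the labels' protocols. The authors deposited 2 tables, each with estimated counts per gene and sample, TPM, the fold change as a ratio and on the log2 scale, and p-values raw and adjusted, per the file headers. Tools listed without roles, per the submitters' processing notes, are Bowtie2 2.2.9, SAMtools 1.9, fastp 0.19.5, DESeq2 and GATK 3.8. Not given in the sources used here were the genome build, the counting program and the use of strand, so reads of overlapping or antisense genes and of near copies may be misassigned. The shLacZ columns agreed in both tables (0 of 8 differed) and were joined.

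The estimated counts were made whole by rounding. Genes that passed filterByExpr entered edgeR 4.0.16 (two-sided robust quasi-likelihood F test, TMM factors) in R 4.3.3, with Benjamini-Hochberg adjustment over all tested genes and a threshold of 0.05. Each knockdown was fitted with shLacZ (8 samples), and shG0s2 against shRgs16 with all 12. Every adjusted p is edgeR's unless another source is named. CPM were scaled by TMM over 12 samples. The script was tested on simulated data. Alternatives were DESeq2 1.42.0, RLE scaling, library size, no filter, 1 CPM in 4 samples, a replicate block, other sample sets and each sample left out.

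The members and gene lists were chosen with earlier results of these data known, so they are described by counts and medians and carry no test of their own. Values in every sample were given for Stat2, Irf9, Irf7, Isg15, Usp18, Igtp, Irgm1 and Gbp2, and for up to 6 type I class members and 3 GTPases with the largest changes past the threshold in each comparison with shLacZ. Other genes named are the core receptors and regulators and up to 3 of each pathway list and 2 of each marker list with the smallest p; 1 gene that this rule names is not reported here. Floors from counts of 0 cover counting error only.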

Additional observations from a re-analysis of the deposited data

Results flagged for a closer look

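Of 126 sets of 4 samples (42 members in 3 groups), 3 held a sample that stood apart from the other 3 by Dixon's ratio above its 95% critical value, where chance gives about 1 in 20. Oasl2 had 34.44 CPM in shRgs16 replicate 2, against 26.2 to 27.5 CPM in the other shRgs16 samples. Mx2 had 5.924 CPM in shRgs16 replicate 1, against 7.83 to 8.07 CPM in the others. Ifi44 had 17.62 CPM in shG0s2 replicate 3, against 14.5 to 14.7 CPM in the others. In 2 of the 3 cases the sample is the one that was highest for most type I class members of its group.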

How the results depend on the processing

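In shG0s2 against shLacZ, library size alone gave 29 type I class members higher, 0 lower and 9 GTPases higher, in place of 15, 2 and 4. Over all 15592 tested genes it gave 10067 higher and 1246 lower, in place of 4875 and 4556. No filter on low counts gave 2 GTPases higher. In shRgs16 against shLacZ, library size gave 0 type I class members lower, 1 GTPase higher and 0 lower, in place of 3, 0 and 1. Over all 15324 tested genes it gave 7686 higher and 1279 lower, in place of 3770 and 3749. In shG0s2 against shRgs16, it gave 9 type I class members higher, 1 lower and 8 GTPases higher, in place of 3, 3 and 4. Over all 16018 tested genes it gave 6054 higher and 1568 lower, in place of 3359 and 3281. A fit of only the 8 samples gave 7 GTPases higher. Over 14159 genes, deviations of same-numbered samples correlated between -0.096 and 0.14. That range covers genes as a whole and cannot tell whether the members share an order by replicate number. Replicate 1 was lowest for all 9 GTPases in shLacZ and in shRgs16, and for 3 of 9 in shG0s2. Pairing of the members by replicate number was not tested. A fit with the replicate number as a block gave 8 GTPases higher in shG0s2 against shLacZ and 7 in shG0s2 against shRgs16. No other count of the 12 moved by over 1.5 times with the block, DESeq2, relative log expression (RLE) scaling, all 12 samples in the fit or the filter of 1 CPM in 4 samples. Depth limits the ligand genes, where 18 of 21 had no count. The causes of these shifts were not tested.

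With 1 sample left out, type I class members higher in shG0s2 against shLacZ numbered 8 to 14 and lower 2 to 2, and GTPases higher 2 to 5. In shRgs16 against shLacZ the ranges were 8 to 17 and 3 to 5 for the type I class and 0 to 1 and 1 to 3 for the GTPases. In shG0s2 against shRgs16 they were 2 to 4 and 2 to 4 for the type I class and 4 to 5 higher for the GTPases.

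Single log2 fold changes that changed sign follow. Among those with no sample left out, only Irf9 in shRgs16 against shLacZ was called. On library size, values in shG0s2 against shLacZ were Irf9 0.41, Irf7 0.43, Ifit1 0.44, Ifit3b 0.37, Usp18 0.30, Ifi35 0.45 and Iigp1 0.40. On library size, values in shRgs16 against shLacZ were Irf9 0.030, Irf7 0.15, Eif2ak2 0.25, Ifit1 0.064, Ifit3b 0.24, Mx2 0.16 and Ifi35 0.14. Further values there were Irgm1 0.24, Irgm2 0.14, Gbp3 0.27, Gbp6 0.13 and Gbp7 0.19. On library size, values in shG0s2 against shRgs16 were Ifih1 0.019, Oas1a 0.16, Oas1g 0.18, Ifit2 0.14, Ifit3 0.10, Ifit3b 0.13 and Bst2 0.030. Further values there were Ifi27 0.020 and Ifi27l2a 0.16. With DESeq2, Ifit3 was -0.0030 in shG0s2 against shLacZ, Rsad2 was -4.0e-04 in shG0s2 against shLacZ and Bst2 was -0.0050 in shG0s2 against shLacZ. With RLE scaling, Bst2 was -2.6e-04 in shG0s2 against shLacZ. With all 12 samples in the fit, Ifit3 was -0.0019 in shG0s2 against shLacZ and Bst2 was -0.0028 in shG0s2 against shLacZ. With the replicate block, Gbp3 was 0.016 in shRgs16 against shLacZ, Isg15 was -0.0012 in shG0s2 against shRgs16 and Parp14 was -0.0024 in shG0s2 against shRgs16. With no filter, Parp14 was -0.0035 in shG0s2 against shRgs16. With 1 sample left out, 30 values changed sign, none of them called. In shG0s2 against shLacZ the ranges were Irf7 -0.14 to 0.043, Ifit1 -0.19 to 0.088, Ifit3 -0.077 to 0.16, Ifit3b -0.18 to 0.0043, Rsad2 -0.14 to 0.11 and Bst2 -0.040 to 0.066. Others there were Ifi35 -0.12 to 0.051. In shRgs16 against shLacZ the ranges were Dhx58 -0.081 to 0.16, Eif2ak2 -0.12 to 0.0076, Ifit3 -0.0027 to 0.23, Ifit3b -0.14 to 0.047, Isg15 -0.0063 to 0.27 and Cmpk2 -0.14 to 0.11. Others there were Rtp4 -0.0094 to 0.18, Irgm1 -0.15 to 0.046, Gbp3 -0.16 to 0.19, Gbp6 -0.33 to 0.055 and Gbp7 -0.28 to 0.087. In shG0s2 against shRgs16 the ranges were Irf7 -0.012 to 0.12, Ddx58 -0.025 to 0.068, Dhx58 -0.066 to 0.17, Oas1a -0.15 to 0.016, Oas1g -0.088 to 0.064 and Oas2 -0.062 to 0.092. Others there were Oasl1 -0.057 to 0.15, Oasl2 -0.065 to 0.13, Ifit2 -0.13 to 0.050, Isg15 -0.10 to 0.11, Parp14 -0.10 to 0.065 and Ifi27l2a -0.10 to 0.024.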
